A study of Mus musculus with 6 samples.

Results

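The genes described here are 45 genes of TGF-beta and BMP signalling in mouse embryonic fibroblasts (MEFs): 7 ligands, 10 receptors and co-receptors, 8 SMAD proteins, 5 latency proteins and proteases, 6 extracellular antagonists, 5 nuclear repressors and ubiquitin ligases, and 4 targets. They were found by their symbols among the 51499 loci of a table of raw read counts, and all 45 were among the 14499 loci with enough counts to be tested. The gene set was selected on symbols and partly on the measured contrast itself, because it names *Tgfbi* as a target that falls strongly, so the changes of its members are given below as a description, without p-values, and nothing is read from how many of them changed. The poly(A) RNA-seq libraries came from WT MEFs transfected either with a scrambled siRNA (Scr) or with an siRNA against *Yme1l* and collected 72 h later, with 3 cultures in each group. YME1L is a protease of the mitochondrial inner membrane, encoded in the mouse by *Yme1l1*. Both groups carry the same background: the labels call the cells 3T3 immortalized, whereas the methods of the study describe SV40 large T antigen, and the WT line is a clone of unrecombined *Yme1l* loxP/loxP genotype obtained after transduction with Cre recombinase. All values therefore come from 1 clonal line in 1 knockdown experiment, and whether the siRNA was a single sequence or a pool is not given in the sources used here.

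TGF-beta and BMP ligands are secreted dimers that bring together type I and type II receptor kinases. TGF-beta and activin receptors phosphorylate SMAD2 and SMAD3, BMP receptors phosphorylate SMAD1, SMAD5 and SMAD9, and both groups of receptor SMADs enter the nucleus with the shared SMAD4. TGF-beta is secreted in a latent complex tethered to the matrix by latent TGF-beta binding proteins, whereas BMPs are held in check by soluble antagonists that bind them directly. SMAD6 and SMAD7 inhibit the receptors and are themselves transcribed in response to the pathway. In fibroblasts, TGF-beta is best known for raising collagen, fibronectin and contractile genes, and BMPs for raising the *Id* genes.

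The 6 libraries held 37260605 to 45205207 counts. *Yme1l1* measured 170.5, 171 and 171 CPM (read counts scaled to the library size) in the Scr cultures and 31.6, 23.4 and 45.04 CPM in the Yme1l siRNA cultures, a log2 fold change of -2.36 (SE 0.20) with an adjusted p of 3.87e-05 in edgeR's quasi-likelihood fit over all 14499 loci. A locus was called higher or lower where its Benjamini-Hochberg adjusted p in that fit was under 0.05, and all log2 fold changes are Yme1l siRNA over Scr. The contrast was broad, with 58.0% of all tested loci called. Fibroblast markers summed to 33550 to 40738 CPM in Scr cultures and to 18039 to 22449 CPM after Yme1l siRNA, with 7 of the 8 tested markers lower, including *Col1a2* and *Pdgfra*, while *Thy1* and *Lum* were near 0 in both groups. Macrophage markers summed to 162 to 178 and 241 to 254 CPM, nearly all from *Csf1r*, which was called higher at 0.74, and *Cd68*, with *Adgre1* at 0 in every library. Endothelial markers summed to 3.79 to 4.08 and 5.68 to 7.85 CPM, with *Kdr* and *Tek* called higher at 2.57 and 0.61 and *Tie1* at 0 in every Scr library. Epithelial markers summed to 0.0924 to 0.166 and 0.807 to 1.33 CPM, with *Krt8* called higher at 4.45 and *Krt5* at 0 throughout, and skeletal muscle markers to 3.37 to 3.80 and 2.54 to 3.63 CPM with *Myod1* and *Myog* at 0 throughout. *Kdr* and *Krt8* had enough counts to be tested only through the Yme1l siRNA libraries. The part of these shifts in the results below was not tested, and in bulk RNA fewer cells of a type and less RNA per cell cannot be told apart.

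Of the 45 genes, 13 were called higher and 20 lower after Yme1l siRNA, beside 28.4% higher and 29.6% lower among all tested loci, and 12 were not called. A change of at least 2-fold with a call was found for 15.5% of all tested loci and for 12 of these genes, 5 higher (*Smad7*, *Grem1*, *Bmp2*, *Fst* and *Nog*) and 7 lower (*Tgfbi*, *Id3*, *Chrd*, *Fstl3*, *Smad9*, *Tgfb3* and *Tgfb2*). The groups did not overlap for 35 of the 45, beside 65.4% of all tested loci. *Bmp2* and *Fst*, counted among the 5 higher genes and among the 35, had enough counts to be tested only through the Yme1l siRNA libraries. The median log2 fold change of the 45 was -0.25, beside 0.01 over all tested loci. Changes of opposite direction occurred within every role except the targets. Of those 4 genes, 3 were lower and *Id1* was not called, and none was higher by edgeR, DESeq2, limma-voom or an unadjusted p under 0.05. The 4 include *Tgfbi*, whose fall was known when the set was chosen, so nothing is read from their shared direction. *Smad7* and *Skil*, which also respond to the pathway but stand under other roles, rose by 2.09 and 0.45. Exons of 13 of the 45 genes overlap a gene on the other strand, and since the use of strand in counting is not stated, reads of those genes cannot be separated from their partners with certainty. They are *Tgfb2*, *Tgfb3*, *Bmp4*, *Bmp6*, *Bmpr1a*, *Acvr2a*, *Acvrl1*, *Eng*, *Ltbp2*, *Ltbp3*, *Fst*, *Fstl3* and *Chrd*. In addition, exons of *Tgfbr3*, *Smad5* and *Smurf2* overlap *Gm43422*, *Gm27301* and *Gm27322*, respectively, on the same strand, where strand cannot separate the reads.

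**Figure D1:**
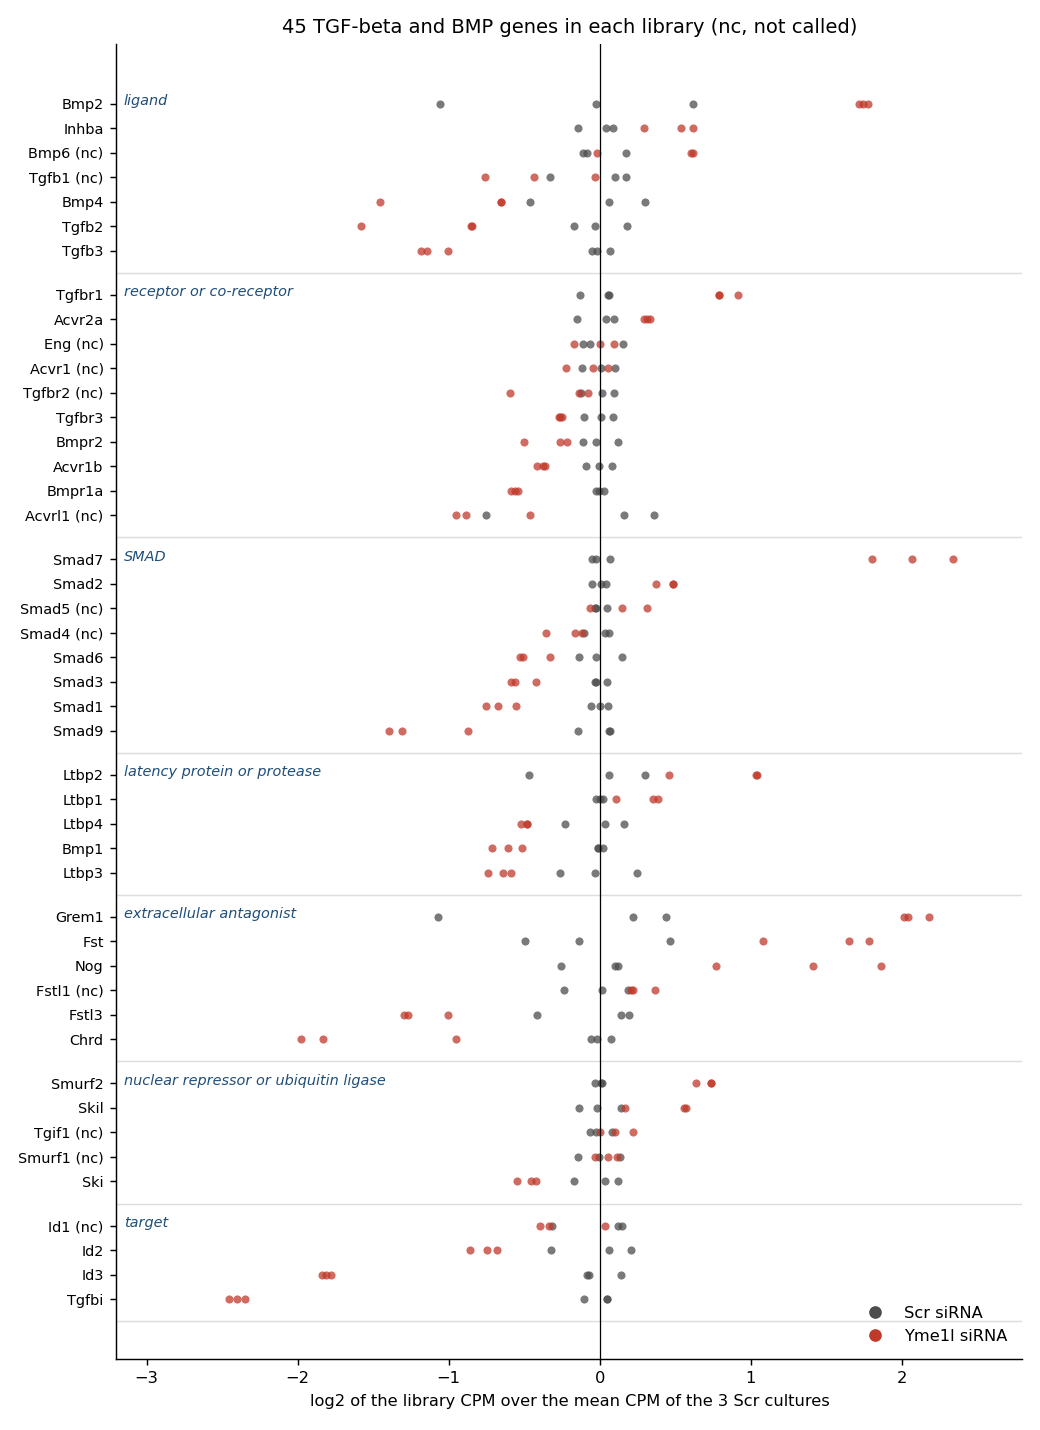
Level of each of the 45 genes in each library as log2 of its CPM over the mean CPM of the 3 Scr cultures (x axis), with genes in rows grouped by role and ordered by fold change within a role. Grey points are Scr and red points Yme1l siRNA cultures, nc marks the 12 genes not called, and the red points lie fully to one side of the grey ones for 35 genes.

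Among the ligands, the 3 TGF-beta isoforms were lower in mean and 2 of them were called. *Tgfb3*, the most abundant ligand of the set per exon length, measured 142, 134 and 131 CPM in the Scr cultures and 59.9, 61.7 and 67.9 CPM after Yme1l siRNA. Every Yme1l siRNA culture was below every Scr culture, and the gene fell by 1.11 (SE 0.08) on the log2 scale. *Tgfb2*, an isoform with roles in embryonic development, went from 26.7, 23.1 and 20.97 CPM in Scr to 13.1, 13.1 and 7.90 CPM in Yme1l siRNA cultures and fell by 1.05 (SE 0.19), again without overlap, with Yme1l siRNA culture 3 the lowest. *Tgfb1*, the isoform most studied in fibrosis, measured 53.8, 51.02 and 37.99 CPM in Scr and 35.2, 46.5 and 28.2 CPM in Yme1l siRNA cultures. Its groups overlapped and it was not called, with a log2 fold change of -0.38 (SE 0.19), although it was called lower when Scr culture 3 or Yme1l siRNA culture 2 was left out, at -0.52 and -0.58.

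The most abundant BMP ligand of the set per exon length was *Bmp4*, which patterns mesoderm and signals in many mesenchymal cells. It measured 45.7, 38.8 and 26.99 CPM in Scr cultures and 23.6, 23.6 and 13.6 CPM after Yme1l siRNA, and it fell by 0.88 (SE 0.24) on the log2 scale. Scr culture 3 was close to the first 2 Yme1l siRNA cultures, so the groups were separate but the gap was small. *Bmp2*, an inducer of bone formation, was close to the limit of counting, with 3, 8 and 6 reads in the Scr libraries and 22, 21 and 20 reads in the Yme1l siRNA libraries. All 3 Yme1l siRNA libraries held more reads than any Scr library, for a log2 fold change of 1.76 (SE 0.40). *Bmp2* had enough counts to be tested only through the Yme1l siRNA libraries. A rise was thus favoured in advance, and nothing is read from its direction or lack of overlap. *Inhba*, the subunit of activin A, rose by 0.49 (SE 0.10) without overlap. By the authors' FPKM (1 value per group) its rise was larger, from 5.93 to 12.7. *Bmp6* was not called at 0.43 (SE 0.20), with 1 Yme1l siRNA culture, the second, inside the Scr range, and was called higher without that culture.

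Of the 10 receptors and co-receptors, 2 were higher, 4 lower and 4 not called, and none reached 2-fold with a call. The share called was 60%, beside 58.0% of all tested loci. *Tgfbr1*, the type I receptor kinase for TGF-beta, measured 22.2, 22.4 and 19.6 CPM in Scr cultures and 40.4, 36.9 and 36.97 CPM in Yme1l siRNA cultures. It rose by 0.83 (SE 0.08) on the log2 scale, the largest change of any receptor that was called, and the groups were far apart. Its partner *Tgfbr2*, the type II receptor that binds TGF-beta first, was not called at -0.25 (SE 0.13), and the groups overlapped. *Bmpr1a*, a type I receptor for BMPs and the most abundant receptor of the set per exon length, measured 286, 282 and 294 CPM in Scr and 198, 195 and 192 CPM in Yme1l siRNA cultures. The replicates were tight, all 3 Yme1l siRNA cultures lay below the Scr range, and the gene fell by 0.56 (SE 0.06). By the authors' FPKM (1 value per group) the fall was smaller, from 55.3 to 49.8.

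The remaining receptors that were called changed less. *Acvr1b*, the activin type I receptor, fell by 0.38 (SE 0.07). *Bmpr2*, the BMP type II receptor, fell by 0.32 (SE 0.10), and *Tgfbr3*, the co-receptor betaglycan, by 0.26 (SE 0.07). *Acvr2a*, an activin type II receptor, rose by 0.31 (SE 0.09). The calls of *Bmpr2*, *Tgfbr3* and *Acvr2a* did not hold without Scr culture 3, Scr culture 1 and Yme1l siRNA culture 1, respectively, and held when any other library was omitted. *Acvr1* and *Eng* were not called at -0.06 (SE 0.09) and -0.02 (SE 0.17). *Acvrl1*, a receptor best known from endothelium, had 51, 37 and 23 reads in the Scr and 22, 29 and 20 reads in the Yme1l siRNA libraries and was not called at -0.74 (SE 0.34), with overlapping groups, and it was called lower without Scr culture 3.

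*Smad7*, the inhibitory SMAD that recruits ubiquitin ligases to the TGF-beta receptor, had, with *Grem1*, the largest rise of the set. It measured 16.1, 16.4 and 17.5 CPM in the Scr cultures and 69.8, 84.4 and 58.4 CPM in the Yme1l siRNA cultures. The Scr values spanned little, the lowest Yme1l siRNA culture was above all of them, and the log2 fold change was 2.09 (SE 0.13). The related inhibitor *Smad6*, which acts mainly on BMP receptors, moved the other way, from 11.5 ± 1.17 CPM (SD, n = 3) to 8.38 ± 0.657 CPM (SD, n = 3), and fell by 0.45 (SE 0.12).

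The SMADs of the BMP branch were lower or not called. *Smad1* measured 46.3, 44.6 and 48.04 CPM in Scr cultures and 27.5, 29.1 and 31.6 CPM after Yme1l siRNA and fell by 0.66 (SE 0.08). *Smad9*, the least abundant receptor SMAD per exon length, went from 15.6, 15.5 and 13.4 CPM in Scr to 6.00, 5.64 and 8.09 CPM in Yme1l siRNA cultures and fell by 1.17 (SE 0.15). Neither gene overlapped between groups, and for both the highest Yme1l siRNA value was that of culture 3. *Smad5* was not called at 0.14 (SE 0.10), and its Yme1l siRNA cultures spread to both sides of the Scr range, with a call for higher levels when the lowest of them, culture 2, was left out.

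The 2 SMADs of the TGF-beta branch diverged. *Smad3*, the most abundant SMAD per exon length, measured 195, 186 and 185 CPM in Scr and 128, 126 and 141 CPM in Yme1l siRNA cultures and fell by 0.52 (SE 0.07), with all Yme1l siRNA cultures below all Scr cultures. *Smad2*, in contrast, rose by 0.45 (SE 0.07), from 38.1 ± 1.24 to 51.99 ± 2.33 CPM (SD, n = 3 each), also without overlap. *Smad4*, the partner of both branches, was 78.3 ± 4.84 CPM in Scr and 67.8 ± 5.83 CPM in Yme1l siRNA cultures (SD, n = 3 each) and was not called at -0.21 (SE 0.08), although its groups did not overlap. Leaving out Yme1l siRNA culture 3 gave it a call.

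The 4 genes named as latent TGF-beta binding proteins split evenly by direction. *Ltbp1*, the most abundant of them per exon length, measured 861, 836 and 851 CPM in Scr and 1112, 915 and 1086 CPM in Yme1l siRNA cultures. Yme1l siRNA culture 2 was close to the Scr range, and the rise of 0.29 (SE 0.09) on the log2 scale lost its call without Scr culture 1, Scr culture 2 or Yme1l siRNA culture 1. *Ltbp2*, which binds fibrillin fibres and does not bind latent TGF-beta, measured 253, 214 and 149 CPM in Scr cultures and 424, 422 and 283 CPM after Yme1l siRNA. Culture 3 was the lowest of each group, the groups did not overlap, and the gene rose by 0.87 (SE 0.21).

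*Ltbp3* went from 311, 256 and 219 CPM in Scr to 174, 168 and 157 CPM in Yme1l siRNA cultures, a fall of 0.66 (SE 0.12). *Ltbp4* also fell, by 0.49 (SE 0.10), from 144 ± 19.4 to 102 ± 1.58 CPM (SD, n = 3 each). For both genes the Scr cultures spread more than the Yme1l siRNA cultures, and the groups did not overlap. *Bmp1*, a metalloproteinase that cleaves procollagen, LTBP1 and the BMP antagonist chordin, measured 438, 427 and 427 CPM in Scr and 283, 302 and 262 CPM in Yme1l siRNA cultures. It fell by 0.61 (SE 0.07) with all Yme1l siRNA cultures below all Scr cultures.

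The extracellular antagonists held the widest range of changes. *Grem1*, a secreted antagonist of BMP2 and BMP4, measured 6.56, 5.63 and 2.30 CPM in the Scr cultures and 19.5, 19.9 and 21.9 CPM in the Yme1l siRNA cultures. Scr culture 3 was well below the other 2, but all Yme1l siRNA cultures were above the highest Scr culture, and the gene rose by 2.08 (SE 0.31). Without Scr culture 3 the log2 fold change was 1.74. *Chrd*, which encodes the BMP antagonist chordin, went the other way, from 4.73, 4.43 and 4.31 CPM in Scr to 1.26, 2.32 and 1.14 CPM in Yme1l siRNA cultures. Yme1l siRNA culture 2 was the highest of its group and still below every Scr culture, and the gene fell by 1.51 (SE 0.27).

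The other antagonists that changed rested on few reads. *Nog*, encoding noggin, had 28, 23 and 21 reads in the Scr and 70, 44 and 91 reads in the Yme1l siRNA libraries, a rise of 1.41 (SE 0.32). *Fst*, encoding the activin antagonist follistatin, had 14, 6 and 9 reads in Scr and 22, 35 and 31 reads in Yme1l siRNA libraries, a rise of 1.51 (SE 0.35). Like *Bmp2*, *Fst* had enough counts to be tested only through the Yme1l siRNA libraries, so nothing is read from its direction. *Fstl3*, a follistatin relative, had 33, 18 and 31 reads in Scr and 12, 12 and 14 reads in Yme1l siRNA libraries, a fall of 1.18 (SE 0.30). The groups did not overlap for any of these genes, and each kept its call in all 6 fits that left out 1 library, but *Nog*, *Fst*, *Fstl3* and *Bmp2* were not tested when a mean of at least 50 counts per library was required. *Fstl1*, a secreted glycoprotein and by far the most abundant gene of this role per exon length, measured 407, 361 and 302 CPM in Scr and 459, 417 and 411 CPM in Yme1l siRNA cultures. The highest Scr culture was just below the lowest Yme1l siRNA culture, and the gene was not called at 0.27 (SE 0.11), although it was called higher without Scr culture 1 and by DESeq2.

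Among the nuclear repressors and ubiquitin ligases, *Smurf2*, a ligase that acts with SMAD7 on the TGF-beta receptor, measured 83.8, 86.2 and 86.6 CPM in Scr cultures and 142, 133 and 142 CPM in Yme1l siRNA cultures. Both groups were tight and far apart, and the gene rose by 0.70 (SE 0.06), whereas its paralog *Smurf1* was not called at 0.05 (SE 0.09). The SMAD corepressors *Ski* and *Skil* moved in opposite directions. *Ski*, the most abundant gene of this role per exon length in Scr but not after Yme1l siRNA, measured 135, 126 and 109.6 CPM in Scr and 92.3, 90.2 and 84.6 CPM in Yme1l siRNA cultures and fell by 0.47 (SE 0.09) without overlap. *Skil*, itself a TGF-beta response gene that encodes SnoN, rose by 0.45 (SE 0.12), but Yme1l siRNA culture 3, at 42.4 CPM, was just above the highest Scr culture, at 41.4 CPM, and the call was lost without Scr culture 2 or Yme1l siRNA culture 1. *Tgif1*, a homeodomain corepressor, was not called at 0.11 (SE 0.08).

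*Tgfbi*, a secreted matrix protein named for its induction by TGF-beta, was the most abundant gene of the set per exon length and the one that fell most. The gene lies at chr13:56609523-56639562 on the plus strand (mm10, GENCODE M21). It measured 3116, 3129 and 2811 CPM in the Scr cultures and 573, 593 and 549.8 CPM in the Yme1l siRNA cultures. The groups were far apart, and the fall was 2.40 (SE 0.09) on the log2 scale. This fall was known when the set was chosen.

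The 3 *Id* genes, which encode inhibitors of basic helix-loop-helix factors and respond to BMPs, did not move alike. *Id3* measured 148, 171 and 147 CPM in Scr cultures and 44.1, 45.3 and 43.5 CPM after Yme1l siRNA, a fall of 1.81 (SE 0.08). The 3 Yme1l siRNA cultures lay within 2 CPM of each other and far below the Scr cultures. *Id2* fell by 0.76 (SE 0.15), from 15.04, 13.6 and 10.4 CPM in Scr to 8.12, 7.15 and 7.76 CPM in Yme1l siRNA cultures, without overlap. *Id1* measured 27.7, 37.5 and 38.1 CPM in Scr and 27.3, 35.3 and 26.2 CPM in Yme1l siRNA cultures and was not called at -0.22 (SE 0.15). Scr culture 1 was close to Yme1l siRNA cultures 1 and 3, and Yme1l siRNA culture 2 lay inside the Scr range.

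**Figure D2:**
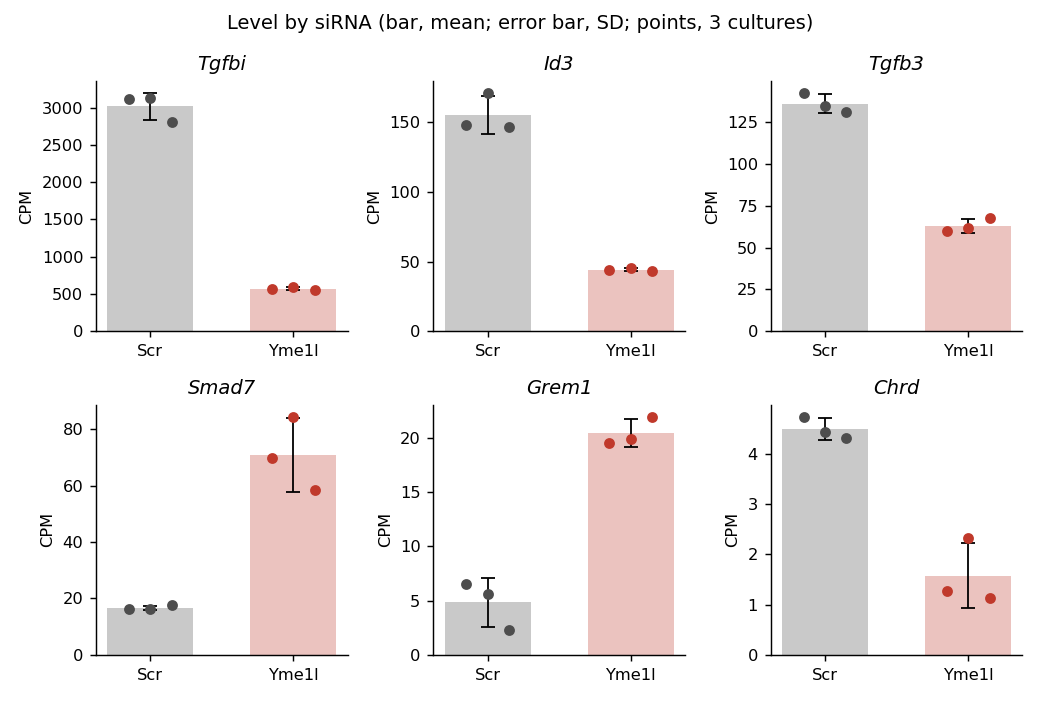
CPM of 6 genes in Scr and Yme1l siRNA cultures, with bars for the mean, error bars for the SD and points for the 3 cultures of each group, on axes that start at 0 and differ by gene. *Tgfbi*, *Id3*, *Tgfb3* and *Chrd* are lower and *Smad7* and *Grem1* higher after Yme1l siRNA, with no overlap between the groups in any of the 6.

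The sequence before the start site is shown for 4 genes that changed by at least 2-fold, 3 lower and 1 higher, because SMAD complexes bind short DNA motifs in such regions. The 4 are examples and not the genes that changed most. RefSeq promoters (GRCm38.p6) were matched by symbol for 33 of the 45 genes, and the 250 bases before each start were searched on both strands. The motifs were the SMAD box CAGAC, whose reverse complement is GTCTG, the palindrome GTCTAGAC, whose ends GTCT and AGAC are parts of the SMAD box, and the GC-rich SMAD site GGCGCC, which is its own reverse complement. In the sequences below, written 5′ to 3′ on the strand of the gene and without annotated exons, capitals mark these motifs. They belong to *Tgfbi* (chr13:56609336-56609522, plus strand), *Tgfb2* (chr1:186706157-186706239, minus strand) and *Chrd* (chr16:20732877-20733126, plus strand), which fell, and *Grem1* (chr2:113758649-113758898, minus strand), which rose.
Tgfbi: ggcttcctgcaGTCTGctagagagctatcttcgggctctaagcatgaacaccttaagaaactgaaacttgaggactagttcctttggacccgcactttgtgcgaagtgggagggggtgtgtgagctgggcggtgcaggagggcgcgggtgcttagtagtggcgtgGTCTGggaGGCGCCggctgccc
Tgfb2: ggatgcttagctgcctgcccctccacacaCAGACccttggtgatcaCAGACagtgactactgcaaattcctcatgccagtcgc
Chrd: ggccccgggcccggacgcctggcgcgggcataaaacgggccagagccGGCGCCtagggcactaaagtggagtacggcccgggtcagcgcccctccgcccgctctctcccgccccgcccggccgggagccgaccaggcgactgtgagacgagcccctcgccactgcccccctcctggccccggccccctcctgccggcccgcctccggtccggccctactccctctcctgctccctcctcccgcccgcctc
Grem1: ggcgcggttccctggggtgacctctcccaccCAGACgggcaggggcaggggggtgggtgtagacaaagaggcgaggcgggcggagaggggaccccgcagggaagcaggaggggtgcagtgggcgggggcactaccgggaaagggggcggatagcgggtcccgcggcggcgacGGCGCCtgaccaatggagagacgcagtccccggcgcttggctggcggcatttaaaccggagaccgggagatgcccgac
The *Tgfbi* stretch held 2 SMAD boxes, which begin 239 and 85 bases before the RefSeq start, and 1 GC-rich site at 77 bases. *Tgfb2* held 2 SMAD boxes, at 221 and 204 bases, *Chrd* 1 GC-rich site at 203 bases, and *Grem1* 1 SMAD box at 219 bases and 1 GC-rich site at 78 bases. Among genes not printed, *Id3* and *Fstl3*, which fell, held 2 SMAD boxes each and *Smad9*, which also fell, 1 GC-rich site. *Ltbp2*, which rose, held 2 SMAD boxes, and *Smurf2*, which rose, 1 SMAD box and 2 GC-rich sites. *Eng* and *Smurf1*, which were not called, held 2 SMAD boxes each. *Bmp4*, *Smad1* and *Smad3*, which fell, held none of the motifs. The SMAD box was in 42.2% of all 32851 mouse promoters in the table and in 20 of the 43 promoters of the 33 genes. The GC-rich site was in 9.59% of all promoters and in 13 of the 43, and the palindrome in 0.167% of all promoters and in none of the 43. Some genes have several promoters, and by gene the SMAD box was in 17 and the GC-rich site in 12 of the 33. The promoters compared were not matched for base composition, so nothing is read from these shares. Both directions of change are represented among the 4 sequences, and a match describes these letters only.

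Levels of different genes were compared per kilobase of merged exons. The composition of several small classes shifted along with their sum. TGF-beta ligand RNA summed to 53.7 ± 3.71 CPM per kb in Scr and 27.9 ± 1.58 CPM per kb in Yme1l siRNA cultures (SD, n = 3 each). *Tgfb3* made up 74.9% ± 2.37 of it in Scr and 67.1% ± 6.58 in Yme1l siRNA cultures, a change within the range of the replicates, as Yme1l siRNA culture 3, at 74.3%, lay inside the Scr range of 73.4% to 77.7%. *Tgfb1* made up 17.5% ± 2.09 and 25.9% ± 5.19, and *Tgfb2* 7.56% ± 0.417 and 7.02% ± 1.75. By the authors' group FPKM, *Tgfb1* was 33.5% and 44.7% and *Tgfb3* 59.03% and 47.8%.

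Inhibitory SMAD RNA summed to 7.26 ± 0.294 CPM per kb in Scr and 18.3 ± 3.08 CPM per kb in Yme1l siRNA cultures. *Smad7* was 50.9% ± 3.33 of this sum in Scr and 85.6% ± 1.49 after Yme1l siRNA. By the authors' group FPKM its shares were 62.8% and 90.7%. *Id* RNA summed to 122 ± 10.7 and 53.4 ± 4.61 CPM per kb, with the share of *Id3* at 71.2% ± 2.28 in Scr and 46.5% ± 2.95 in Yme1l siRNA cultures, so that *Id1* and *Id3* were at similar levels after knockdown.

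Receptor SMAD RNA summed to 59.1 ± 1.58 and 47.2 ± 3.65 CPM per kb. *Smad3* held 57.6% ± 0.200 of it in Scr and 50.3% ± 0.942 in Yme1l siRNA cultures, while the share of *Smad2* went from 7.34% ± 0.149 to 12.6% ± 0.622. These shares depend strongly on the length used, since by the authors' group FPKM *Smad2* was 20.2% and 31.0% and *Smad3* 44.7% and 34.7%. The *Ltbp* genes, with *Ltbp2*, whose protein does not bind latent TGF-beta, summed to 156 ± 14.9 and 177 ± 12.0 CPM per kb. *Ltbp2* made up 16.0% ± 2.72 of that sum in Scr and 25.9% ± 4.90 after Yme1l siRNA, and *Ltbp3* 18.5% ± 1.51 and 10.4% ± 0.393. Of the set's 3 BMP ligands, *Bmp4* was 93.6% ± 1.54 of the RNA in Scr and 84.5% ± 6.26 in Yme1l siRNA cultures. These shares leave out *Bmp7*, which is not among the 45 genes. *Bmp7* measured 4.15 ± 0.639 CPM per kb in Scr and 10.7 ± 1.66 CPM per kb in Yme1l siRNA cultures (SD, n = 3 each). Its mean was below that of *Bmp4* in Scr. After Yme1l siRNA the order varied by culture, with *Bmp7* at 10.3, 9.27 and 12.5 and *Bmp4* at 10.5, 10.5 and 6.03 CPM per kb. By the authors' group FPKM *Bmp7* was below *Bmp4* in both groups, at 4.63 and 35.6 in Scr and 11.9 and 21.1 after Yme1l siRNA. The shares therefore describe the 3 listed genes and not all BMP ligand RNA.

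**Figure D3:**
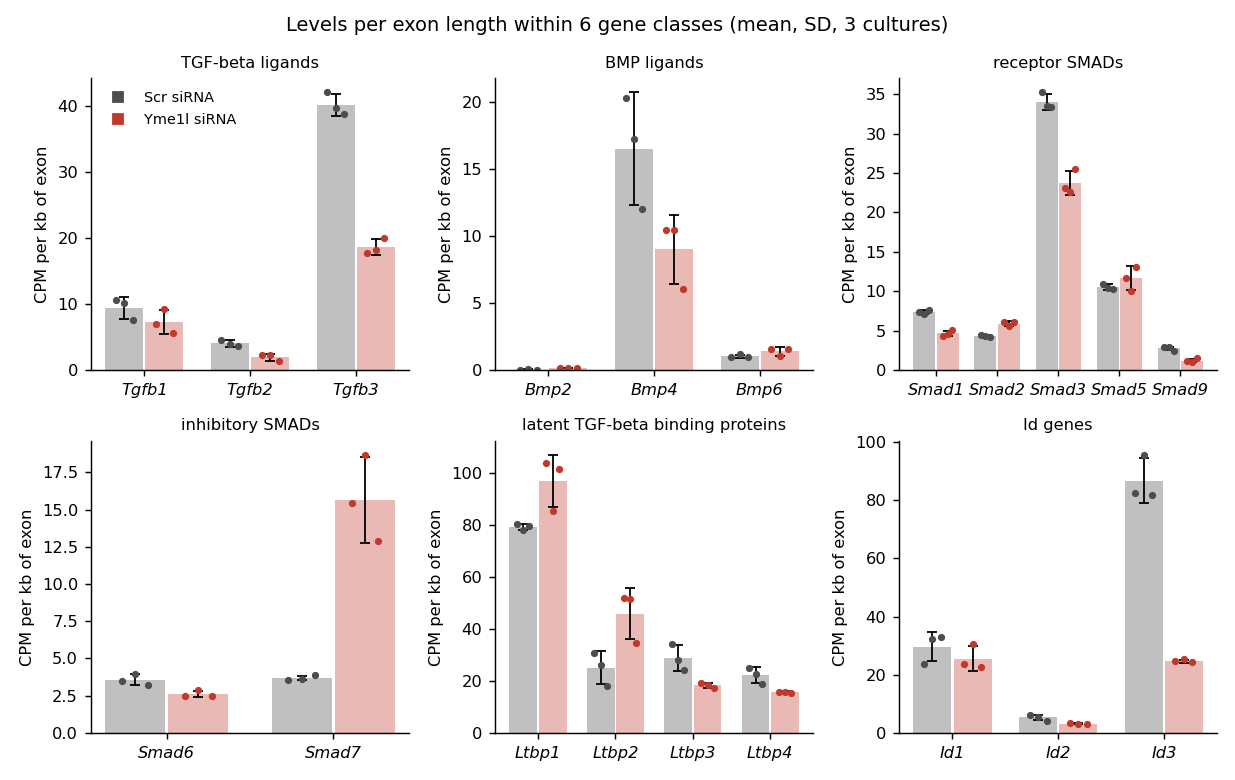
Level per kilobase of exon (CPM per kb, y axis from 0) of the members of 6 gene classes, with bars for the mean, error bars for the SD and points for the 3 cultures, Scr in grey and Yme1l siRNA in red. *Smad7* rises from 3.69 to 15.7 CPM per kb, while *Smad6* goes from 3.57 to 2.61 CPM per kb, and *Id3* comes down to the level of *Id1*.

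Levels in the Scr cultures spanned from 0.0406 ± 0.0214 CPM per kb for *Bmp2* to 801 ± 47.6 CPM per kb for *Tgfbi* (SD, n = 3). *Tgfbi* stood apart from the rest, followed by *Id3* at 86.7 ± 7.72, *Ltbp1* at 79.4 ± 1.15 and *Fstl1* at 72.6 ± 10.6 CPM per kb, where neighbours in the order differed by less than the larger of their SDs. The most abundant gene of each remaining role was *Bmpr1a* at 45.3 ± 0.934, *Tgfb3* at 40.2 ± 1.70, *Smad3* at 34.04 ± 1.03 and *Ski* at 22.2 ± 2.28 CPM per kb. The order depends on the length used: in the authors' FPKM for the Scr group, *Ltbp1* was above *Id3*, at 161 and 141, and *Tgif1* was far above *Ski*, at 81.3 and 22.7. The genes that rose by at least 2-fold all ranked in the lower part of the Scr order, with *Smad7* 31st, *Grem1* 37th, *Nog* 41st, *Fst* 44th and *Bmp2* 45th. The Scr level is also the base of each fold change, so a low rank and a large rise are not independent, and nothing is read from their meeting. Genes that fell by at least 2-fold ranked at both ends, with *Tgfbi* 1st, *Id3* 2nd, *Tgfb3* 7th, *Tgfb2* 29th, *Smad9* 35th, *Chrd* 40th and *Fstl3* 42nd. After Yme1l siRNA, *Smad7* ranked 20th and *Id3* 8th, and *Tgfbi* was still the highest at 152 ± 5.70 CPM per kb.

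**Figure D4:**
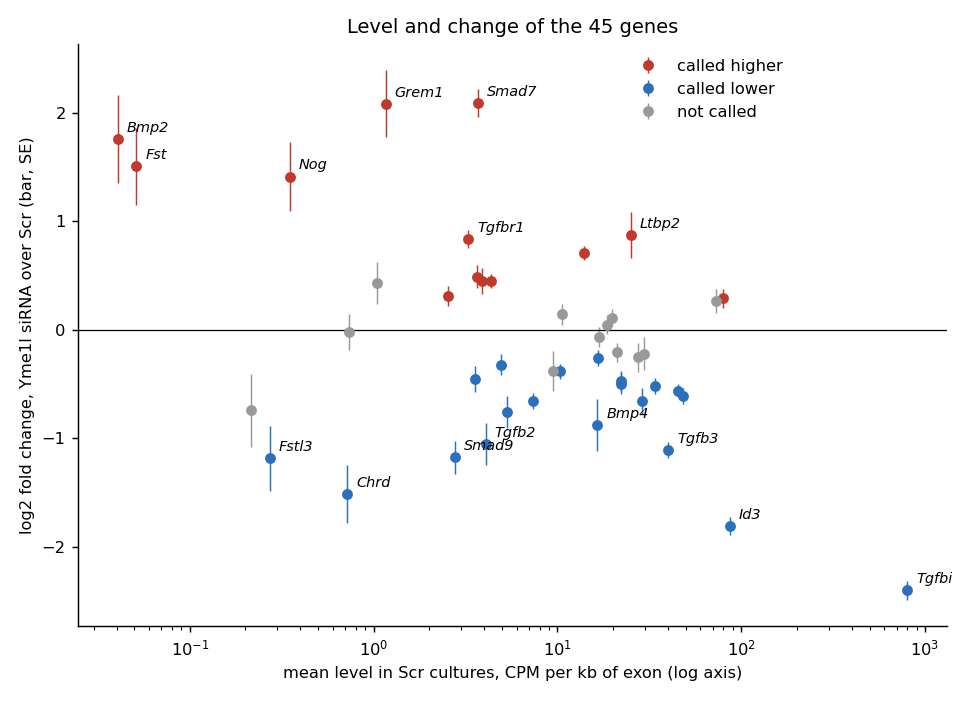
Mean level in the Scr cultures (x axis, CPM per kb of exon, log scale) against the log2 fold change of Yme1l siRNA over Scr (y axis, bars are the SE) for the 45 genes, with names at changes of 0.8 or more in size. The 5 genes higher by at least 2-fold lie at Scr levels of 3.69 CPM per kb or less, but so do *Smad9*, *Chrd* and *Fstl3*, which were lower by at least 2-fold. The 2 genes at the bottom, *Id3* and *Tgfbi*, are the 2 with the highest Scr levels on this scale. The Scr level enters both axes, so they are not independent.

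Other genes of the pathway, from a list of 100 that does not include the 45, were read in the same fit. Of the 70 tested, 21 were higher and 20 lower, with a median log2 fold change of 0.03. The share called was 58.6%, close to the 58.0% of all tested loci, so nothing is read from these counts. Other ligands were mostly absent or low: 10 of 26 were tested, 4 were higher and 1 lower, which is 50% called. *Bmp7*, a BMP with kidney and bone functions, measured 18.8, 17.5 and 13.8 CPM in Scr and 41.6, 37.2 and 50.4 CPM in Yme1l siRNA cultures (log2 fold change 1.37, SE 0.14, edgeR adjusted p = 9.37e-05). *Gdf15*, a stress-induced cytokine, rose by 1.65 (SE 0.47, edgeR adjusted p = 0.0156), a call lost without Scr culture 2 and a value of 2.55 without Scr culture 3, and *Gdf11*, a relative of myostatin, fell by 0.67 (SE 0.11, edgeR adjusted p = 0.00113). *Amh* and *Bmp8a* were also called higher but stayed under 1 CPM in every library, and both had enough counts to be tested only through the Yme1l siRNA libraries. Of 14 other receptors and co-receptors, 8 were tested and 12.5% were called. The BMP receptor *Bmpr1b* alone was called, at 1.21 (SE 0.32, edgeR adjusted p = 0.0116) from 0.655 ± 0.245 CPM in Scr (SD, n = 3).

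Among other extracellular regulators, 24 of 31 were tested, with 8 higher and 9 lower, 70.8% called beside 58.0% of all tested loci. *Itgav*, the integrin subunit that takes part in activation of latent TGF-beta, rose from 215, 205 and 172 CPM in Scr to 463, 459.6 and 389 CPM in Yme1l siRNA cultures (log2 fold change 1.15, SE 0.11, edgeR adjusted p = 5.28e-05). *Fbn1*, the fibrillin to which latent complexes attach, rose by 1.10 (SE 0.21, edgeR adjusted p = 0.00198), while *Fbn2* fell by 1.55 (SE 0.18, edgeR adjusted p = 0.000145). The serine proteases *Htra1* and *Htra3* also diverged, at 0.70 (SE 0.08, edgeR adjusted p = 0.000157) and -1.86 (SE 0.17, edgeR adjusted p = 4.56e-05). The proteoglycans *Dcn* and *Fmod*, which bind TGF-beta, fell by 1.09 (SE 0.17, edgeR adjusted p = 0.00081) and 2.48 (SE 0.62, edgeR adjusted p = 0.00847), and *Dcn* is one of the fibroblast markers that were lower. *Fmod* measured 3.93, 2.83 and 0.616 CPM in Scr and 0.541, 0.506 and 0.261 CPM in Yme1l siRNA cultures. Its Scr culture 3 was thus close to the Yme1l siRNA cultures, and its log2 fold change was -1.96 without Scr culture 1. *Emilin1*, which limits processing of the TGF-beta precursor, fell by 0.78 (SE 0.10, edgeR adjusted p = 0.000255). *Pcolce2* was called higher at 0.47, as was the locus that joins *Pcsk6* with *Snrpa1* and *Gm45213*, at 0.56, whose reads cannot be given to *Pcsk6* alone. *Chrdl2* was called higher at 1.81 but stayed under 1 CPM, with 2.40 without Scr culture 1 and no call without Yme1l siRNA culture 1. It too had enough counts to be tested only through the Yme1l siRNA libraries.

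Of 29 other intracellular regulators, 28 were tested, with 8 higher and 10 lower, 64.3% called beside 58.0% of all tested loci. *Nedd4l* and *Usp15*, a ubiquitin ligase and a deubiquitinase with SMADs and receptors among their substrates, rose by 1.02 (SE 0.08, edgeR adjusted p = 3.27e-05) and 0.97 (SE 0.10, edgeR adjusted p = 6.90e-05). *Strap*, which binds the receptor with SMAD7, rose by 0.66 (SE 0.08, edgeR adjusted p = 0.000186), and *Zfyve9*, the SMAD anchor SARA, by 0.27 (SE 0.06, edgeR adjusted p = 0.00685). *Tgfb1i1*, encoding the focal adhesion protein HIC-5, fell by 1.03 (SE 0.07, edgeR adjusted p = 1.16e-05). *Stub1*, *Lemd3* and *Fkbp1a* fell by 0.66 (SE 0.07), 0.48 (SE 0.08) and 0.39 (SE 0.07), with edgeR adjusted p = 0.000138, 0.000753 and 0.00199. *Smoc1*, an antagonist of BMP signalling that was in no list and whose fall was already known, went from 120.0, 99.2 and 82.6 CPM in Scr to 11.1, 11.7 and 11.4 CPM in Yme1l siRNA cultures.

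All 36 genes of a list of TGF-beta targets in fibroblasts were tested, and they did not move in 1 direction: 8 were higher, 17 lower and 11 not called, with a median log2 fold change of -0.28. The share called was 69.4%, beside 58.0% of all tested loci. *Ctgf*, an immediate TGF-beta target that encodes a matrix-associated protein, was among the higher genes. It measured 54.4, 50.02 and 47.6 CPM in Scr and 295, 286 and 135 CPM in Yme1l siRNA cultures (log2 fold change 2.24, SE 0.26, edgeR adjusted p = 0.000176). Yme1l siRNA culture 3 was the lowest of its group and still above all Scr cultures. The growth factor gene *Hbegf* rose by 0.97 (SE 0.08, edgeR adjusted p = 2.86e-05), and the cytokine *Il11* by 1.04 (SE 0.35, edgeR adjusted p = 0.0311), from a level under 1 CPM in Scr and with a call that did not hold without Scr culture 2, Scr culture 3, Yme1l siRNA culture 1 or Yme1l siRNA culture 2.

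The 17 lower target genes included matrix genes. The collagens *Col3a1* and *Col1a2* fell by 1.51 (SE 0.17, edgeR adjusted p = 0.000137) and 1.40 (SE 0.17, edgeR adjusted p = 0.000177). *Itga11*, a collagen-binding integrin subunit, and *Postn*, encoding the matrix protein periostin, fell by 1.99 (SE 0.36, edgeR adjusted p = 0.00157) and 1.80 (SE 0.46, edgeR adjusted p = 0.00975). *Acta2*, the smooth muscle actin of myofibroblasts, fell by 1.41 (SE 0.31) from only 6.75 ± 1.38 CPM (SD, n = 3; edgeR adjusted p = 0.00463), whereas the contractile genes *Tagln* and *Cnn1* were not called at 0.62 and 0.18 (edgeR adjusted p = 0.0591 and 0.23). *Cdkn2b*, a cell cycle inhibitor, and *Snai2*, a transcriptional repressor, fell by 1.26 (SE 0.10, edgeR adjusted p = 3.15e-05) and 0.92 (SE 0.07, edgeR adjusted p = 1.82e-05). *Col1a1*, *Col1a2*, *Col3a1* and *Fn1* are also among the fibroblast markers, and *Pmepa1*, *Ldlrad4* and *Tgfb1i1* stand in the list of other pathway genes too.

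**Figure D5:**
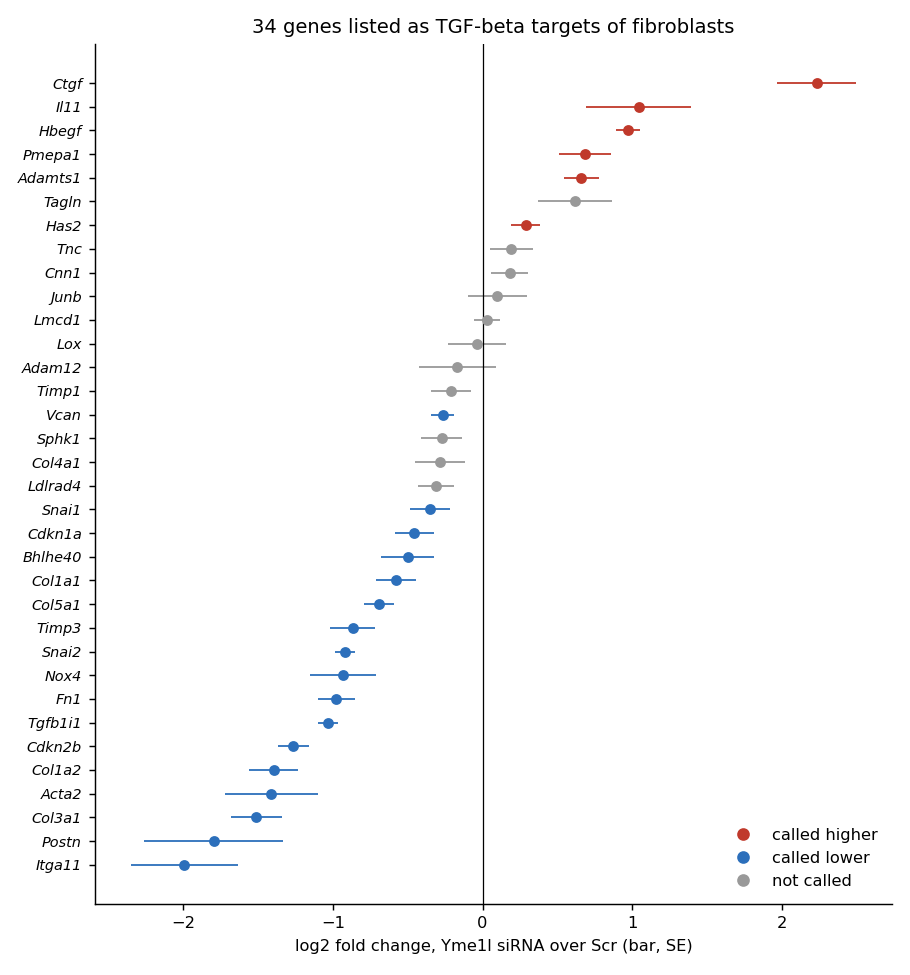
Log2 fold change of Yme1l siRNA over Scr (x axis, bars are the SE) for 34 of the 36 genes listed as TGF-beta targets of fibroblasts, in rows ordered by value. Red points are 6 of the genes called higher, led by *Ctgf*, blue points the 17 called lower, ending with *Postn* and *Itga11*, and grey points the 11 not called.

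Of 14 further genes listed as BMP targets, without *Id1*, *Id2* and *Id3*, 7 were tested and the osteoblast factor *Runx2* alone was called, lower by 0.43 (SE 0.08, edgeR adjusted p = 0.00189). The share called was 14.3%, beside 58.0% of all tested loci. None was called higher by edgeR, by limma-voom or at an unadjusted p under 0.05, and *Alpl*, a bone phosphatase gene near the limit of counting that was named after its values were seen, was called higher by DESeq2. The median log2 fold change of the 7 was 0.15, whereas *Id3* and *Id2* were lower. Of the 14 genes, 8 did not reach 1 CPM in any library, the 7 untested genes among them.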

How the data were processed

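Polyadenylated RNA of 6 cultures (3 Scr, 3 Yme1l siRNA) was made into stranded libraries and sequenced in pairs by the authors, who mapped reads to mm10 (GRCm38) with HISAT2 2.0.4 and assembled transcripts with StringTie 1.3.3. The deposited table holds raw counts per locus for each library, and the program that counted reads, and its use of strand, are not given in the sources used here. The authors' second table holds 1 FPKM value per group from Cuffdiff 2.2.1, with the libraries of a group combined, used here only as an alternative level. Its columns of fold changes, test statistics, p-values and q-values were not used. Groups were taken from the sample labels.

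Counts were scaled by TMM and fitted with edgeR 4.0.16 (R 4.3.3) by quasi-likelihood, Yme1l siRNA against Scr, after filterByExpr (10 counts, 15 in total), with Benjamini-Hochberg adjustment over 14499 loci and a threshold of 0.05. No covariate was used. CPM use the TMM factors, and levels per kb divide CPM by merged exons (GENCODE M21). Symbols were split at commas where a locus joins several, which held for 398 tested loci and for none of the 45 genes. The fit was tested on simulated counts in which 200 of 14499 loci changed 2-fold. It recovered 70% of them, and 9.09% of its calls were false. The simulation changed a much smaller share of loci than was called in the data, so it does not give the error rate of the real contrast. No pair of libraries was a duplicate. Libraries held 37260605 to 45205207 counts, so a gene with under 10 reads a library has a wide counting error.

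The 45 genes and all lists were chosen with earlier results of these data known. Values in every library are given for genes of the set that were called with a log2 fold change of at least 0.58 in size and for the highest gene of each role. Other lists are represented by up to 4 genes in each direction with the smallest adjusted p and by genes past 2-fold, up to 8 a list. Alternatives were DESeq2 size factors, upper-quartile factors, DESeq2 1.42.0, limma-voom (limma 3.58.1), no filter, a mean of at least 50 counts, a replicate block, and leaving out each library. Figures were drawn with matplotlib 3.10.9. Of the TGF-beta target genes, 2 are counted in the list but not reported singly here.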

Additional observations from a re-analysis of the deposited data

How the results depend on the processing

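No called result changed direction under any alternative that was run. The counts of higher and lower genes among the 45, among other pathway genes and among TGF-beta targets stayed within 1.5 times their main values. The number of BMP target genes called higher, 0 in the main fit, was 1 without a filter on low counts and 1 with DESeq2 (*Alpl* in both), and ranged from 0 to 1 when a library was left out (1, *Tob1*, without Yme1l siRNA culture 3). Of the 45 genes, 33 were called in the main fit and 30 to 36 when a library was left out, and the same 33 were called with DESeq2 size factors, upper-quartile factors and limma-voom, while DESeq2 called these and *Fstl1*. Requiring a mean of 50 counts left *Bmp2*, *Fst*, *Fstl3* and *Nog* untested and gave 30 calls, with *Fstl1* gained. The median level of the 45 genes in Scr cultures was 10.3 CPM per kb and 17.8 FPKM in the authors' table, and the cause was not tested. Same-numbered cultures deviated together with correlations of 0.04, 0.12 and 0.19, not all above 0.1, and Scr culture 1 correlated better with Yme1l siRNA culture 2 (0.09) than with culture 1, so the numbers were not taken to pair the cultures. With the replicate block, 37 of the 45 were called, adding *Fstl1*, *Smad4*, *Tgfb1* and *Tgfbr2*. Low counts limit *Bmp2*, *Fst*, *Fstl3*, *Nog* and *Acvrl1*.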

Other observations

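Culture 3 was the lowest of its group in both the Scr and the Yme1l siRNA cultures for 16 of the 45 genes, among them *Ltbp2*, *Bmp4*, *Tgfb1* and *Tgfb2*, for 21 of the 36 TGF-beta target genes and for 6 of the 8 tested fibroblast markers, beside 18.1% of all tested loci.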
